A study of Mus musculus with 16 samples.

Results

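The tricarboxylic acid (TCA) cycle enzymes described here were taken by gene symbol: Cs, Idh2, Idh3a, Idh3b, Ogdh, Suclg1, Sucla2, Fh1 and Mdh2. Succinate dehydrogenase was not part of the set. Of the 9 genes listed, 8 had a named probe and were measured, among 9846 named genes and 16140 rows tested (named genes plus unnamed probes), and Idh2 was not analysed here. The 8 genes had 11 probes, each with a value on all 16 arrays, and all 8 passed the filter on missing values.

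The cycle oxidises acetyl-CoA in the mitochondrial matrix to carbon dioxide and hands the electrons to NAD+ and FAD, which feed the respiratory chain. Kidney tubules depend on it for the ATP of solute reabsorption, and proximal tubule cells also run glutamine carbon through it during ammoniagenesis and draw on it for gluconeogenesis. Acetyl-CoA made from fatty acids enters the cycle at citrate synthase.

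The samples were kidneys of 4 males carrying the label MFP2-/- and, as the control on every array, 1 RNA pool from 5 wild-type males, all aged 15 weeks. The pool is named in the labels as the Swiss strain SWR/Ola Hsd. The sources used here do not give the strain background of the MFP2-/- mice, and no treatment is named for either group. The Hsd17b4 gene encodes MFP2, a peroxisomal enzyme that takes part in the shortening of very long and branched fatty acids. Each mouse was measured on 4 two-channel cDNA arrays, 2 with its RNA in Cy5 and 2 with its RNA in Cy3, and the number of arrays limits the precision. All values are log2 ratios, so they carry no expression level, and neither the kidney origin nor the level of an enzyme could be read from them. In whole-kidney RNA, fewer cells of a type and less RNA per cell cannot be told apart.

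The ratios were read as mutant over pool. That direction and the log base are not stated in the sources used here and were inferred from the values, so the signs below are not settled. The basis was the spots with an absolute value over 10: where mutant RNA carried Cy5, 292 of 292 were positive, and where it carried Cy3, 0 of 218 were, which in this reading puts the low channel in Cy3 on every array. Arrays of different mice in the same dye orientation had Pearson correlations from 0.01 to 0.37 across probes, with none clearly below 0. Between opposite orientations they ran from -0.36 to 0.06, with a median of -0.11. These correlations do not back the direction chosen, since in that reading a mutant signal shared by the mice would make them positive. The targeted gene Hsd17b4 did not settle the labels: 1 of its probes had a mean log2 ratio of -0.91 ± 0.80 (SD, n = 4) and the other 0.43 ± 0.34. The titles and source names of mouse 1 give different animal numbers, while the mouse identifier is the same on its 4 arrays.

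The first comparison asked whether transcripts of these enzymes differed between MFP2-/- kidney and the wild-type pool. No member passed the test. In limma with Benjamini-Hochberg adjustment over all 16140 rows, 0 of 8 members and 0% of all rows were called at 0.05, and the smallest adjusted p among the members was 0.559. No member had an unadjusted limma p under 0.05 either. Of all 16140 rows 1459 had one, and 5.83% of all rows had one with a mean above 0. With 8 members, a count of 0 does not set them apart from all rows. With all 16 arrays fitted and the mouse as a random block, limma called 221 rows, and still 0 of 8 members. That fit took a within-mouse correlation of 0.035, so it counted arrays of the same mouse almost as separate animals. The mean log2 ratio lay above 0 for 6 of 8 members, against 50.1% of all rows and 54.1% of named genes. The members' median was 0.09, against 0.00 over all rows and 0.01 over named genes, and the 8 means ran from -0.10 for Cs to 0.25 for Fh1. The enzymes that turn oxoglutarate into oxaloacetate (Ogdh, Suclg1, Sucla2, Fh1 and Mdh2) had a median of 0.15 with 5 of 5 means above 0. The enzymes that act before oxoglutarate (Cs, Idh3a and Idh3b) had a median of 0.00 with 1 of 3 above 0. No test was run on that contrast, and it did not hold in the other reading of the direction, given next. Read as Cy5 over Cy3 instead, 0 of 8 members were called and 4 of 8 means lay above 0, against 45.6% of all rows. In that reading the sign turned for Cs (0.07), Ogdh (0.00), Fh1 (-0.09) and Mdh2 (-0.01), while Suclg1 was at 0.09, Sucla2 at 0.13, Idh3a at 0.11 and Idh3b at -0.04. The pool is 1 control sample, so the tests leave out the spread among wild-type animals.

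**Figure D1:**
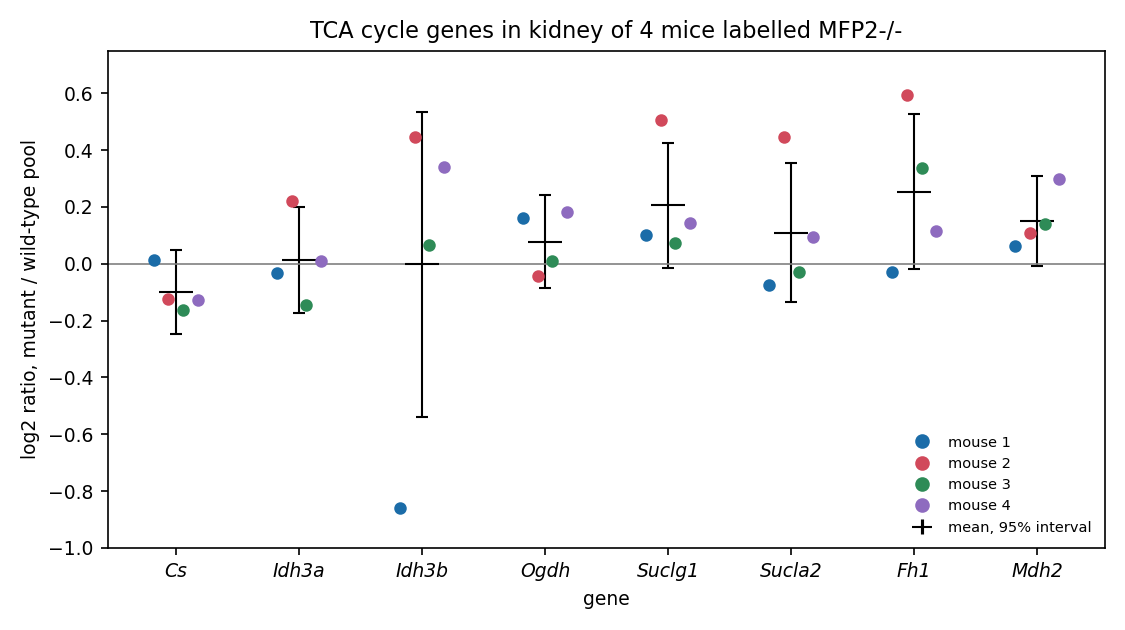
Log2 ratio of mutant over wild-type pool (vertical axis) for the 8 measured TCA cycle genes (horizontal axis); coloured points are the 4 mice, the black dash is their mean and the bar its 95% interval from limma. Every interval crosses 0, and the points of mouse 2 are the highest for Idh3a, Idh3b, Suclg1, Sucla2 and Fh1.

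Cs encodes citrate synthase, which joins acetyl-CoA and oxaloacetate. Its log2 ratios in mice 1 to 4 were 0.01, -0.12, -0.16 and -0.13. It was the member with the lowest mean, -0.10 ± 0.08 (SD, n = 4), with values on both sides of 0 and a limma adjusted p of 0.616. The 95% interval of the mean was -0.25 to 0.05. The gene had 2 probes that did not follow each other: the first had -0.09, -0.25, 0.09 and -0.17 in mice 1 to 4, and the second 0.12, 0.01, -0.42 and -0.09. Single arrays of Cs were far apart, from -0.81 to 0.39. Its SD between repeats of the same mouse and orientation was 0.45, the largest of the 8 members.

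Idh3a and Idh3b encode the alpha and beta subunits of the NAD-dependent isocitrate dehydrogenase, which forms oxoglutarate; the alpha subunit carries the catalytic site. The log2 ratios of Idh3a in mice 1 to 4 were -0.03, 0.22, -0.15 and 0.01, with mice 1 and 3 below 0 and mice 2 and 4 above. Its mean was 0.01 ± 0.15 (SD, n = 4), with a 95% interval of -0.17 to 0.20 and a limma adjusted p of 0.959. Idh3a was the most repeatable member, with an SD between repeats of 0.10.

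For Idh3b the log2 ratios were -0.86 in mouse 1 and 0.45, 0.07 and 0.34 in mice 2 to 4. Mouse 1 stood apart on the low side, and the other mice were all above 0. The mean was 0.00 ± 0.59 (SD, n = 4; limma adjusted p = 0.998), and the 95% interval, -0.54 to 0.54, was the widest of the members. Without mouse 1 the mean was 0.28. The low value of mouse 1 lay mainly in 1 dye orientation: its arrays with the mutant in Cy5 had -1.88 and -1.32, and those with the mutant in Cy3 had -0.24 and -0.01. The third subunit gene, Idh3g, was not a member; it encodes the regulatory gamma subunit and had 0.09, 0.61, 0.13 and 0.33, above 0 in 4 of 4 mice. Its mean was 0.29 ± 0.24 (SD, n = 4), with an unadjusted limma p of 0.028 and an adjusted p of 0.548.

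Ogdh encodes the E1 component of the oxoglutarate dehydrogenase complex, which makes succinyl-CoA. Its log2 ratios were 0.16, -0.04, 0.01 and 0.18 in mice 1 to 4, with mice 1 and 4 the highest and mouse 2 just below 0. The mean was 0.08 ± 0.11 (SD, n = 4), the 95% interval -0.09 to 0.24 and the limma adjusted p 0.704. Dlst, the E2 component of the same complex, had 0.00, 0.38, 0.03 and 0.16 over 3 probes. Its mean was 0.14 ± 0.17 (SD, n = 4; limma adjusted p 0.608), and unlike Ogdh it was highest in mouse 2.

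Suclg1 encodes the alpha subunit of succinate-CoA ligase, which both forms of that enzyme share and which makes a nucleoside triphosphate directly in the cycle. Its log2 ratios were 0.10, 0.50, 0.07 and 0.14 in mice 1 to 4. All were above 0, with mouse 2 well above the other mice. The mean was 0.21 ± 0.20 (SD, n = 4), the 95% interval -0.01 to 0.43 and the limma adjusted p 0.563. Each of the 3 probes was highest in mouse 2, at 0.47, 0.55 and 0.49, and the probe means were 0.13, 0.20 and 0.29. Suclg1 was above 0 on 8 of 8 Cy5 arrays (mutant RNA in Cy5) and on 4 of 8 Cy3 arrays.

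Sucla2 encodes the beta subunit of the ATP-forming ligase. Its log2 ratios, mice 1 to 4, were -0.08, 0.45, -0.03 and 0.09, again with mouse 2 apart from the others. The mean was 0.11 ± 0.24 (SD, n = 4; limma adjusted p = 0.723), and without mouse 2 it was 0.00. Suclg2, the beta subunit of the GTP-forming ligase and not a member, had 0.00, -0.45, 0.09 and -0.15. It was therefore lowest in mouse 2, where Suclg1 and Sucla2 were highest, with a mean of -0.13 ± 0.24 (SD, n = 4) and a limma adjusted p of 0.680.

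**Figure D2:**
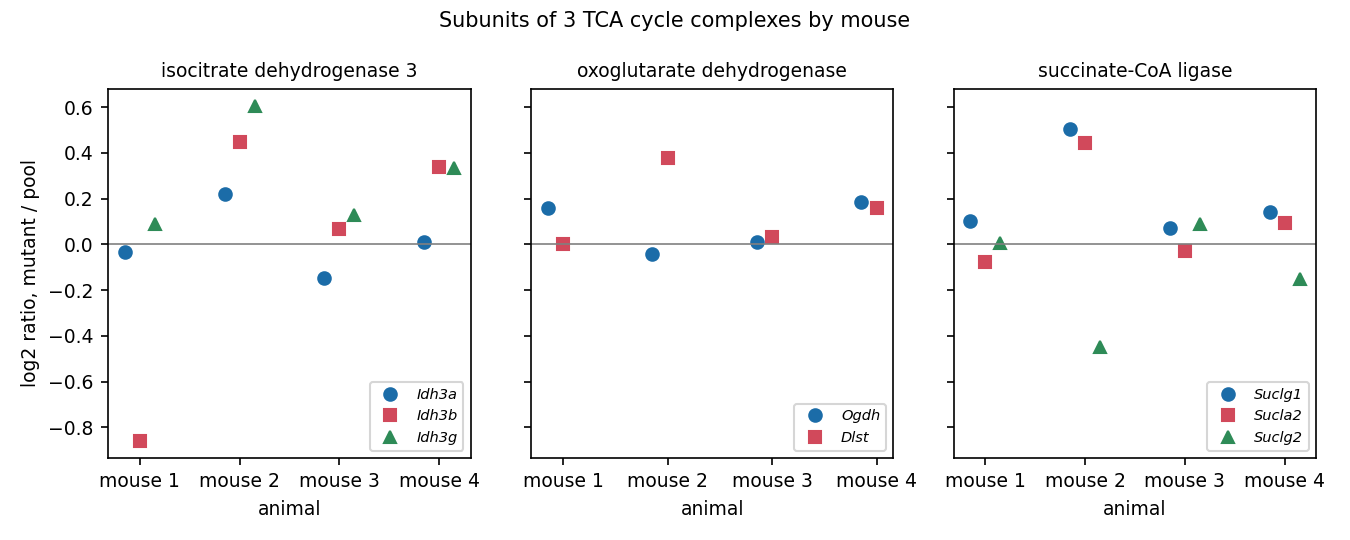
Log2 ratio of mutant over pool (vertical axis) by mouse (horizontal axis) for subunit genes of isocitrate dehydrogenase 3, the oxoglutarate dehydrogenase complex and succinate-CoA ligase; each point is 1 gene in 1 mouse. Idh3b is at -0.86 in mouse 1 while Idh3a and Idh3g are near 0, and Suclg2 is at -0.45 in mouse 2 while Suclg1 and Sucla2 are at 0.50 and 0.45.

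Fh1 encodes fumarate hydratase, which adds water to fumarate to give malate. Its log2 ratios were -0.03, 0.60, 0.34 and 0.11 in mice 1 to 4, with mouse 1 near 0 and mouse 2 the highest. It had the highest mean of the members, 0.25 ± 0.27 (SD, n = 4), with a 95% interval of -0.02 to 0.53 and a limma adjusted p of 0.564. All 4 arrays of mouse 2 lay between 0.40 and 0.81. In mouse 1 the 4 arrays lay between -0.08 and 0.02.

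Mdh2 encodes mitochondrial malate dehydrogenase, which regenerates oxaloacetate. Its log2 ratios were 0.06, 0.11, 0.14 and 0.30 in mice 1 to 4, above 0 in every mouse and highest in mouse 4. The mean was 0.15 ± 0.10 (SD, n = 4), the 95% interval -0.01 to 0.31 and the limma adjusted p 0.559. The means in the 2 orientations were close, at 0.14 (mutant in Cy5) and 0.16 (mutant in Cy3). Suclg1 and Mdh2 were the 2 of 8 members above 0 in 4 of 4 mice, as were 10% of the rows measured in all mice.

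**Figure D3:**
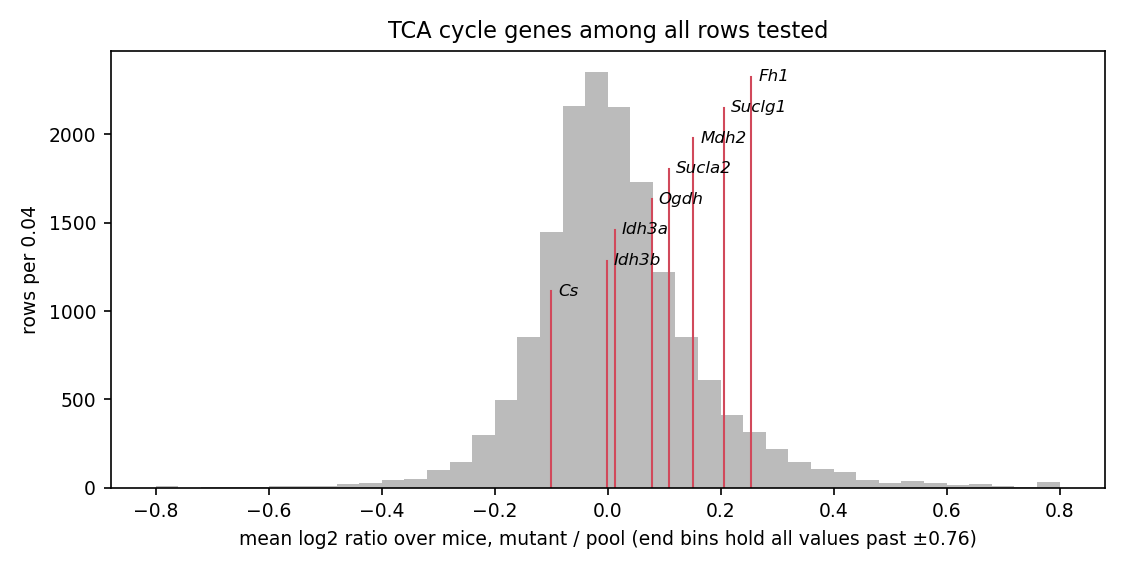
Histogram of the mean log2 ratio over mice (horizontal axis) for all 16140 rows tested (vertical axis, rows per bin), with red lines at the 8 measured TCA cycle genes; line heights only separate the labels. Fh1 at 0.25 and Suclg1 at 0.21 lie in the upper shoulder, while Cs at -0.10 is the lowest of the 8.

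The second question was how far the 4 animals differed among themselves. The members' median was -0.01, 0.33, 0.04 and 0.13 in mice 1 to 4, while the medians of all rows lay between -0.01 and 0.01. Mouse 2 was the highest of the 4 mice for 5 of 8 members, as it was for 31% of all rows, and mouse 1 was the lowest for 4 of 8, against 24.7% of all rows. This order rests on the inferred direction. Read as Cy5 over Cy3, the members' medians were 0.17, -0.04, -0.01 and 0.13. In that reading mouse 2 was the highest for 1 of 8 members (29% of all rows) and mouse 1 the lowest for 1 of 8 (24.7% of all rows). Without mouse 2 the members' median over mice was 0.05, and without mouse 1 it was 0.18. Limma's F-test on the 16 arrays with a dye term, adjusted over 15856 rows, called 0 of 8 members, as against 0.189% of all rows. The unadjusted F-test p was under 0.05 for 4 members, a count without a background, since the share of all rows was not computed. The 4 members were Fh1 (p = 0.0072, adjusted p = 0.215), Idh3b (p = 0.014, adjusted p = 0.287), Suclg1 (p = 0.021, adjusted p = 0.325) and Idh3a (p = 0.026, adjusted p = 0.353). The spread in that test is the one between arrays, and arrays of 1 mouse share their RNA.

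With the ratios read as mutant over pool, the list median of proximal tubule markers had the same order of mice as the members' median. The 7 measured of 12 had medians of -0.07, 0.35, 0.10 and 0.25 in mice 1 to 4. None of them was called against the pool by limma after adjustment. Miox had -0.25, 1.25, 0.67 and 0.98 and was called in limma's F-test between mice (adjusted p = 0.033). Star, of the adrenal cortex list, was also called there (adjusted p = 0.0092). Single proximal tubule markers differed: Slc22a8, Aqp1 and Miox had the members' order of mice and the others did not. Slc34a1 had -0.07, -0.27, -0.19 and -0.26, highest in mouse 1 and lowest in mouse 2. The 3 measured of 8 collecting duct markers had 0.11, 0.40, 0.01 and 0.28; 1 of them, Slc4a1, is also in the red blood cell list. The list medians of stroma, distal tubule and leukocyte genes did not have the members' order of mice. The 5 leukocyte genes had medians from -0.17 to -0.02 over the mice, the 6 stroma genes from -0.14 to 0.02 and the 4 adipocyte genes from -0.03 to 0.08. The 6 endothelial genes had 0.00, 0.16, 0.03 and -0.01, and the 4 thick limb and distal tubule genes 0.15, 0.04, 0.10 and 0.13. The 3 red blood cell genes had -0.11, -0.13, -0.13 and 0.07, the 3 adrenal cortex genes 0.20, -0.17, 0.46 and -0.16, and Podxl, the 1 podocyte gene measured, 0.25, 0.40, -0.08 and 0.34. The members' order of mice was not particular to proximal tubule markers. It was also in the list medians of other TCA subunits, the pyruvate dehydrogenase complex, cytosolic counterparts, genes that feed or drain the cycle, and carriers. The genes that feed or drain the cycle had -0.01, 0.20, 0.06 and 0.07, and the carriers -0.09, 0.18, 0.01 and 0.06. The part of cell makeup in the members' values was not tested.

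The arrays of the 2 dye orientations gave different pictures for some members. Over the 8 members, the median was 0.13 for mutant RNA in Cy5 and 0.06 for mutant RNA in Cy3. The per-array median of the members was above 0 on 7 of 8 Cy5 arrays and on 4 of 8 Cy3 arrays. In mouse 1 the split was widest: 6 of 8 members were above 0 on each of its Cy5 arrays and 0 of 8 on each of its Cy3 arrays. In mouse 2, by contrast, 6 or 7 of 8 members were above 0 on every array. The limma dye term, adjusted over the same rows, called 0 of 8 members and 8.4% of all rows; without centring of the arrays it called Idh3a. The member with the smallest dye p was Idh3a, at 0.12 where the mutant RNA carried Cy5 and -0.10 where it carried Cy3 (adjusted p = 0.076). Sucla2 had 0.23 and -0.02 in the same order, and Fh1 ran the other way, at 0.17 and 0.34. The naming of these differences as dye rests on the inferred direction. Read as Cy5 over Cy3, a gene's difference between orientations becomes its difference between mutant and pool, and the reverse. For Idh3a that mean against the pool was 0.11, with a limma adjusted p of 0.294. The same holds for the dye differences of Mdh1 and Slc25a11 given below.

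**Figure D4:**
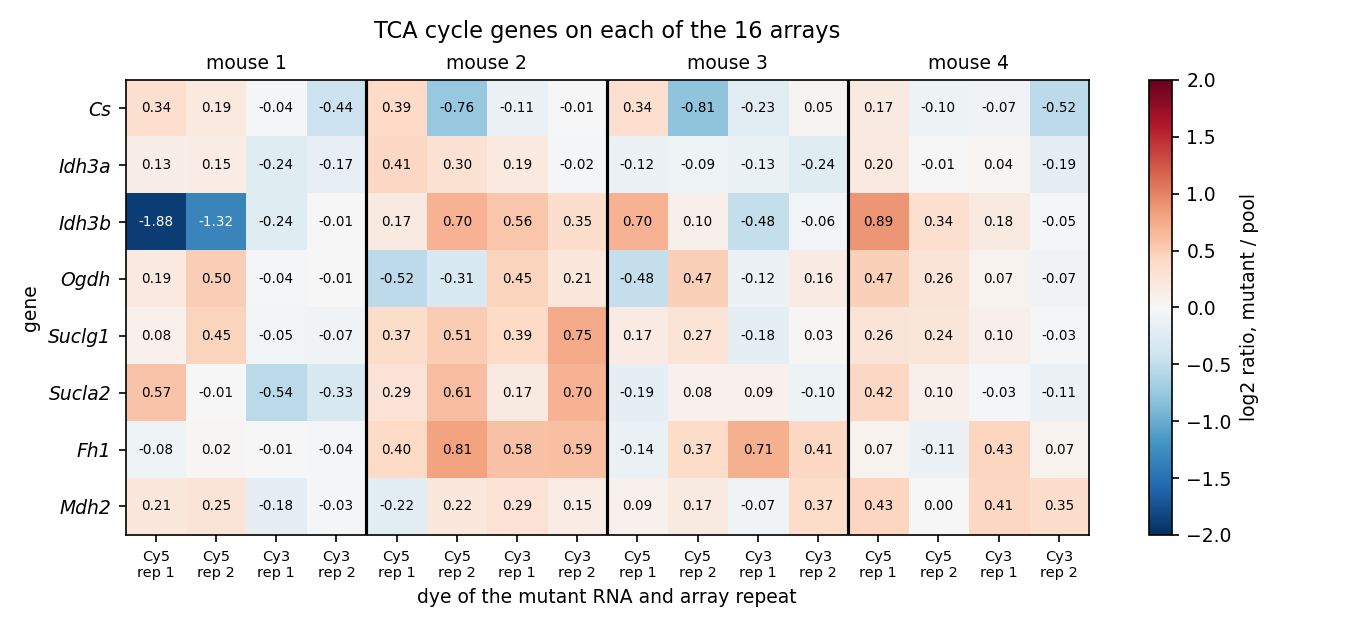
Log2 ratio of mutant over pool on each of the 16 arrays (columns, grouped by mouse, dye of the mutant RNA and array repeat) for the 8 measured TCA cycle genes (rows); red is above 0 and blue below. Mouse 2 is red on most arrays of Suclg1, Sucla2 and Fh1, and the darkest blue cells are Idh3b on the arrays of mouse 1 with the mutant in Cy5, at -1.88 and -1.32.

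The rest of the pathway was described from lists of 51 other measured genes. None passed limma's adjusted threshold against the pool (0 of 51). A mean above 0 was found for 34 of 51, against 54.1% of named genes and 50.1% of all rows. At an unadjusted p under 0.05 there were 10 of 51, all with a mean above 0, beside the 5.83% of all rows given above. Both counts depend on the inferred direction. Read as Cy5 over Cy3, 28 of 51 means lay above 0, against 45.6% of all rows, and 0 of 51 were called. The share of named genes was not computed for that reading. In that reading 8 genes had an unadjusted limma p under 0.05, 4 of them with a mean above 0. Of all rows, 6.65% had such a p with a mean above 0. These lists were written with earlier results of these data known.

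Succinate dehydrogenase, which joins the cycle to the respiratory chain, was mixed. Its anchor subunit Sdhd was at 0.08, 0.66, 0.18 and 0.38 in mice 1 to 4, with a mean of 0.32 ± 0.25 (SD, n = 4), and its iron-sulphur subunit Sdhb had a mean of 0.19 ± 0.24. The flavoprotein subunit Sdha had a mean of -0.12 ± 0.13, below 0 in 3 of 4 mice, and Sdhc had 0.04 ± 0.20. All 4 had a limma adjusted p of at least 0.548.

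The pyruvate dehydrogenase complex, which supplies acetyl-CoA from pyruvate, had a median of 0.07 over 8 genes, 6 of them with a mean above 0. Pdk2, a kinase that switches the complex off, had 0.24 ± 0.17 (SD, n = 4), and Pdha1, its catalytic alpha subunit, had 0.22 ± 0.26 with -0.07 in mouse 1 and 0.56 in mouse 2. Among 5 cytosolic counterparts of the cycle (median 0.10), Mdh1, the cytosolic malate dehydrogenase, had 0.43 ± 0.36 (SD, n = 4) with values of -0.08, 0.76, 0.50 and 0.54 in mice 1 to 4. Mdh1 also differed between the dye orientations (0.64 with mutant RNA in Cy5, 0.21 in Cy3; limma adjusted p = 0.040). Aco1, the cytosolic aconitase, had 0.28 ± 0.26 (SD, n = 4). Of these genes none passed the adjusted test against the pool.

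The 15 genes that feed carbon into the cycle or draw it off had a median of 0.07, with 11 means above 0. Glud1, glutamate dehydrogenase, had 0.30 ± 0.22 (SD, n = 4), and Got1, the cytosolic aspartate aminotransferase, had 0.36 ± 0.28, both above 0 in 4 of 4 mice with a limma adjusted p of 0.548. The 6 carriers of citrate, dicarboxylates and related acids had a median of 0.03. The largest was Slc25a13, an aspartate-glutamate carrier, at 0.33 ± 0.42 (SD, n = 4). Slc25a11, the oxoglutarate-malate carrier, had 0.22 ± 0.29 (SD, n = 4), but -0.14 (mutant in Cy5) and 0.58 (mutant in Cy3; limma adjusted p for the dye 0.018). The 9 factors of mitochondrial biogenesis had a median of 0.06. Vdac1, the outer membrane channel, had 0.24, 0.64, 0.33 and 0.35 in mice 1 to 4 (mean 0.39 ± 0.18, SD, n = 4), and Polg, the mitochondrial DNA polymerase, had 0.18 ± 0.08. Both were above 0 in every mouse and had a limma adjusted p of 0.548.

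The genes whose 16 array values lay closest to the members' mean profile were Wwtr1, Rrbp1, Smc1a, Hook1 and Eprs, with mean absolute differences of 0.082, 0.084, 0.091, 0.092 and 0.094 on the log2 scale. They were the nearest of 9055 named genes with a value on every array, whose median difference was 0.27. Wwtr1 had -0.05, 0.31, 0.01 and 0.04 in mice 1 to 4, and Eprs had -0.01, 0.24, 0.18 and 0.12. The members themselves lay farther from their own mean than these genes, from 0.15 for Idh3a to 0.38 for Idh3b. That gap follows from the choice, since these genes were picked by this distance and the members were not.

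The start regions of the members were searched for 2 motifs of factors known to act on mitochondrial genes, in RefSeq windows of 250 bases before to 50 after each start (assembly GRCm38.p6), on both strands. Windows were matched by symbol for 7 of the 8 measured members, 12 windows in all. TNAAGGTCA, a motif of the estrogen-related receptors, was in 0 of the 12 and in 1.28% of all 32851 windows. GCGCATGCG, a core of the NRF1 motif, was in 2 of the 12, both of Ogdh and both covering the same match, and in 1.75% of all windows. The matched stretch is shown because it was the 1 match in the set, with the match in capitals, at chr11:6292533-6292557 on the plus strand; it ends just before 1 of the Ogdh starts.

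Ogdh: taggtgttgtGCGCATGCGtaactc

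The match begins 15 bases before that start.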

How the data were processed

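Kidney RNA of 4 mice labelled MFP2-/- was hybridised with RNA of 1 wild-type pool on 16 two-channel cDNA arrays. Per the deposited table, the authors gave 1 ratio per probe and array, read here as log2, with 19737 to 20228 values each. How they normalised and background-corrected, and the ratio's base and sign, are stated nowhere in the labels or headers read here. The deposited medians lay between -0.149 and 0.098. No intensities were analysed, so brightness over background is unknown.

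Probes were named from the platform annotation (14030 of 20355 with 1 symbol, 5 with several and left unnamed, 6320 with none), and 13994 symbols were updated by gene identifier through RefSeq (GRCm38.p6). Values over 10 in absolute size, read as spots with 1 channel at a floor, were set to missing; none was on a member's probe. Each array was centred on its median. Arrays were averaged within each dye orientation, then over both, to 1 value per mouse. Probes needed both orientations in at least 3 mice, and probes of 1 symbol were averaged. A two-sided limma 3.58.1 test (R 4.3.3; lmFit, eBayes) of the mice's mean against 0 was adjusted over all rows by Benjamini-Hochberg at 0.05. The pool is 1 control sample, so the spread among wild-type animals is left out. Differences between mice and dyes were tested with limma on all 16 arrays, in rows with both orientations in all 4 mice. The SD between repeats pools the pairs of arrays of 1 mouse in 1 orientation. The code was tested on simulated data.

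The members and gene lists were chosen with earlier results of these data known. The named genes were all measured members, the 2 genes of each other pathway list with the smallest p, the 4 subunits of succinate dehydrogenase, the 5 genes nearest the members' array profile, and Hsd17b4. Suclg2, Podxl, Slc4a1, Miox, Slc34a1 and Star were named after their values were seen. Alternatives covered centring, scaling, floor spots, direction, averaging within mice, single orientations and repeats, a random block per mouse (duplicateCorrelation, statmod 1.5.0), missing values, 1 probe per gene, the prior, an unmoderated test and leaving out each mouse. The turned direction for the other pathway genes and the order of the mice, and 3 settings of the dye test, were added after seeing the data.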

Additional observations from a re-analysis of the deposited data

Results flagged for a closer look

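Suclg1 in mouse 2, at a log2 ratio of 0.505, stood far from the other mice: its gap to the next mouse was 0.836 of the range over the 4 mice, above Dixon's 95% critical value for 4 samples. Each of the 8 members was looked at in this way, and chance marks about 1 in 20 such groups. The 3 probes of Suclg1 had 0.47, 0.55 and 0.49 in that mouse, and its 4 arrays lay between 0.37 and 0.75. The value is read as mutant over pool, a direction that was inferred. Without mouse 2 the mean of Suclg1 was 0.11.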

How the results depend on the processing

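No member was called against the pool in any of the 19 alternatives or between mice in any of 11. For the dye, 1 member (Idh3a) was called with uncentred arrays, and 0 in the main test and the other alternatives run. The members' median ranged from 0.03 (read as Cy5 over Cy3) to 0.18 (without mouse 1), and its sign held. Rows called against the pool numbered 0 with the main settings, 12 read as Cy5 over Cy3, 3 and 1 with the mutant in Cy5 or Cy3 alone, and 221 with all 16 arrays and the mouse as a random block (within-mouse correlation 0.035). Rows called between mice numbered 30 in the main test, 16 with scaling by the median absolute deviation, 2 read as Cy5 over Cy3, 16 with the array repeat number as a replicate block, 4 with no dye term, and 5 to 13 without 1 mouse. Rows called for the dye numbered 1332, 2740 uncentred and 260 read as Cy5 over Cy3 (both chosen after seeing the data), and 44 to 2701 without 1 mouse: 46 without mouse 1, 2701 without mouse 2, 44 without mouse 3 and 75 without mouse 4. Member means changed sign 14 times in 152. Read as Cy5 over Cy3 these were Cs at 0.070, Ogdh at -0.0041, Fh1 at -0.089 and Mdh2 at -0.0074. With the mutant in Cy3 alone they were Idh3a at -0.097, Idh3b at 0.033 and Sucla2 at -0.017. With 1 array repeat they were Cs at 0.10 (repeat 1), and Idh3a at -0.033 and Idh3b at 0.0081 (repeat 2). Uncentred, Idh3a was at -0.0022. Without 1 mouse, Idh3a ranged from -0.056 to 0.066, Idh3b from -0.15 to 0.28 and Sucla2 from -0.0033 to 0.17. The causes were not tested. The number of arrays and the single pool limit the precision, and signal over background is unknown.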
